A study of Mus musculus with 10 samples.

Results

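Meningeal fibroblasts, the cells that build the pia and arachnoid around the brain, and the extracellular matrix they secrete were examined through 43 genes, chosen by name as collagens, small proteoglycans, laminins, meningeal transporters and related markers. All 43 were among the 13661 genes of the authors' deposited table of adult mouse cortex, and all 43 had a p-value. By role, 26 were placed on the meninges side (fibrillar and fibril-associated matrix, transporters and other meningeal markers), 12 on the vessels side (basement membrane collagens, laminins and nidogens), and 5, made by many cell types, were kept apart.

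The groups were 5 libraries of the genotype labelled Chd8 KI and 5 labelled wild-type (WT), each of poly(A) RNA from the cortex of 1 male mouse at 8 weeks of age. The knock-in (KI) is the study's model of duplication of Chd8, which encodes a chromatin remodeller linked to autism; the labels used here give neither the build of the allele nor the promoter that drives it, and do not say whether animals shared a litter. Values are the authors' DESeq2 results for the whole comparison, so no value per library can be shown, and the depth of each library is unknown. No header says which genotype is on top of the fold change. KI over WT was taken, since Chd8 is then 1.40-fold higher in KI (95% interval 1.22 to 1.61, adjusted p = 0.0044 by the DESeq2 Wald test in the authors' deposited table), and each direction given below depends on that choice. Of the cortical neuron markers, the authors' deposited table lists Slc17a7, the vesicular glutamate transporter of cortical excitatory neurons, at a mean normalised count of 28078. That count does not show that the tissue was cortex alone. The choroid plexus marker Ttr had a mean normalised count of 13144 and the thalamus marker Prkcd one of 507 in the authors' deposited table.

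Fibroblasts of the meninges secrete fibril-forming collagens and the small leucine-rich proteoglycans that coat and space the fibrils, and they carry transporters that move solutes between cerebrospinal fluid, blood and brain. Basement membranes are thinner sheets of collagen IV, laminin and nidogen that lie under the endothelium of every brain vessel and under the glial surface of the cortex, and endothelial cells, mural cells, astrocytes and fibroblasts all add to them. In bulk cortex, fewer cells of a type and less RNA per cell cannot be told apart.

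The promoters of 5 genes are shown. Fmod, Pcolce and Slc13a4 are the meninges-side genes with an unadjusted p under 0.05, and none of them passed after adjustment. Col4a1 and Col4a2, the main collagen chains of vessel basement membrane, start head to head. Each window runs from 250 bases before a transcript start of the gene to 50 bases after it, 5′ to 3′ on the strand of the gene, from RefSeq for build GRCm38.p6. For Pcolce and Col4a1 that transcript start lies inside the gene, 118 and 63 bases from its outermost annotated end, and for the other 3 it is that end. Capitals mark matches on either strand to TATAAA (bound by TBP), CCAAT (bound by NF-Y), GGGCGG (bound by Sp1), TGANTCA (AP-1), GTAAACA (forkhead factors) or CAGACA (holding the core letters bound by SMAD proteins), and none of these motifs contains another.
Fmod, chr1:134037004-134037303, plus strand: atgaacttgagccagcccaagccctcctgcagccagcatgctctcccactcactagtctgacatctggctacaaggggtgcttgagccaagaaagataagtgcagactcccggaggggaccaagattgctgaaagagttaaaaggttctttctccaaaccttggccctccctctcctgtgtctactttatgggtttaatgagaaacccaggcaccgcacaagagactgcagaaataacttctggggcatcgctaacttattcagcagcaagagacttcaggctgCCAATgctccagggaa
Pcolce, chr5:137611355-137611654, minus strand: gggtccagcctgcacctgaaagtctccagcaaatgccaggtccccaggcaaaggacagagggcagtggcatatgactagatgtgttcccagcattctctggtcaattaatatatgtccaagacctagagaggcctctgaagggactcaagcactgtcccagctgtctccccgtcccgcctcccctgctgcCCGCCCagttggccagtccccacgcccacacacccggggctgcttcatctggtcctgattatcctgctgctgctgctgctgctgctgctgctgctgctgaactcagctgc
Slc13a4, chr6:35308077-35308376, minus strand: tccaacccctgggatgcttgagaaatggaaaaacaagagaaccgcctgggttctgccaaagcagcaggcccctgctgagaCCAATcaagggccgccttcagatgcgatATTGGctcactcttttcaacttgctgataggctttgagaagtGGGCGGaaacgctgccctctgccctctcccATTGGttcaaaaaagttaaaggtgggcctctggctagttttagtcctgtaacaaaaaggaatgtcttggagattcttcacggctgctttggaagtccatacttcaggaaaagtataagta
Col4a1, chr8:11312777-11313076, minus strand: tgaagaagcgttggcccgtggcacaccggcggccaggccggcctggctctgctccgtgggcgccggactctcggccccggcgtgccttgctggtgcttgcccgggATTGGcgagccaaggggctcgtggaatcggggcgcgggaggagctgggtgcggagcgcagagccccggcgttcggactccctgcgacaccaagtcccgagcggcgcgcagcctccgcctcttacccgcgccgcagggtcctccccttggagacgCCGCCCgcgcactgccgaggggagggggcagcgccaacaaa
Col4a2, chr8:11312555-11312854, plus strand: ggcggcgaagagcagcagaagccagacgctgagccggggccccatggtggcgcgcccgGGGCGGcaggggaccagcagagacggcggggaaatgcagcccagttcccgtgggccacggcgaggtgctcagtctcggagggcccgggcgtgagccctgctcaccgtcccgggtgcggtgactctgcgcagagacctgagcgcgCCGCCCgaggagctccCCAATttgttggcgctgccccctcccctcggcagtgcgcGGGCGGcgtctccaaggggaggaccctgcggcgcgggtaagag

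The Slc13a4 window held 4 matches, 3 to CCAAT and 1 to GGGCGG, while the Fmod window held 1 CCAAT and the Pcolce window 1 GGGCGG. The Col4a1 and Col4a2 windows shared 78 bases, chr8:11312777-11312854, read on opposite strands, and the transcript starts they are placed on lay 21 bases apart. Both were rich in G and C, at 74% and 73.7%, against 51% for Fmod, 59.3% for Pcolce and 48.7% for Slc13a4. Promoter windows were at hand for 32 of the 43 genes, 37 windows in all. CCAAT stood in 35.1% of these 37 windows, against 37.4% of all 32851 windows in the table, and GGGCGG in 51.4%, against 35.7%. CAGACA stood in 11 of the 37, against 6913 of all 32851, TATAAA in 5.41%, against 13.6%, TGANTCA in 5.41%, against 7.81%, and GTAAACA in 2.70%, against 3.65%. Split by side, GGGCGG stood in 11 of 23 meninges windows and 7 of 10 vessels windows, and CCAAT in 7 of 23 and 6 of 10. A match is a description of letters and not a binding site.

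Meninges-side genes leaned lower in KI cortex and vessels-side genes did not, though no gene of either side passed the threshold. Of the 26 meninges-side genes, 25 had a negative log2 fold change in the authors' deposited table, with a median of -0.15, against 5 of 12 on the vessels side, with a median of 0.025. The vessels value was 0.012 as a mean weighted by precision. Across all 13660 genes with a p-value, 48.4% were negative and the median was 0.0025. None of the 43 genes passed an adjusted p of 0.05 by the authors' DESeq2 Wald test, which 0.0732% of all genes did. At an unadjusted p under 0.05 there were 5, all lower in KI: Fmod, Pcolce, Slc13a4, Apod and Ptgds, 3 of them on the meninges side and none on the vessels side. Of all genes, 1.88% were lower in KI at that level. The genes were chosen with earlier results of these data known, in which meningeal markers were lower, so the lean of the meninges side is not independent evidence. The difference between the sides was not tested, since all genes were measured in the same libraries and are not independent.

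**Figure D1:**
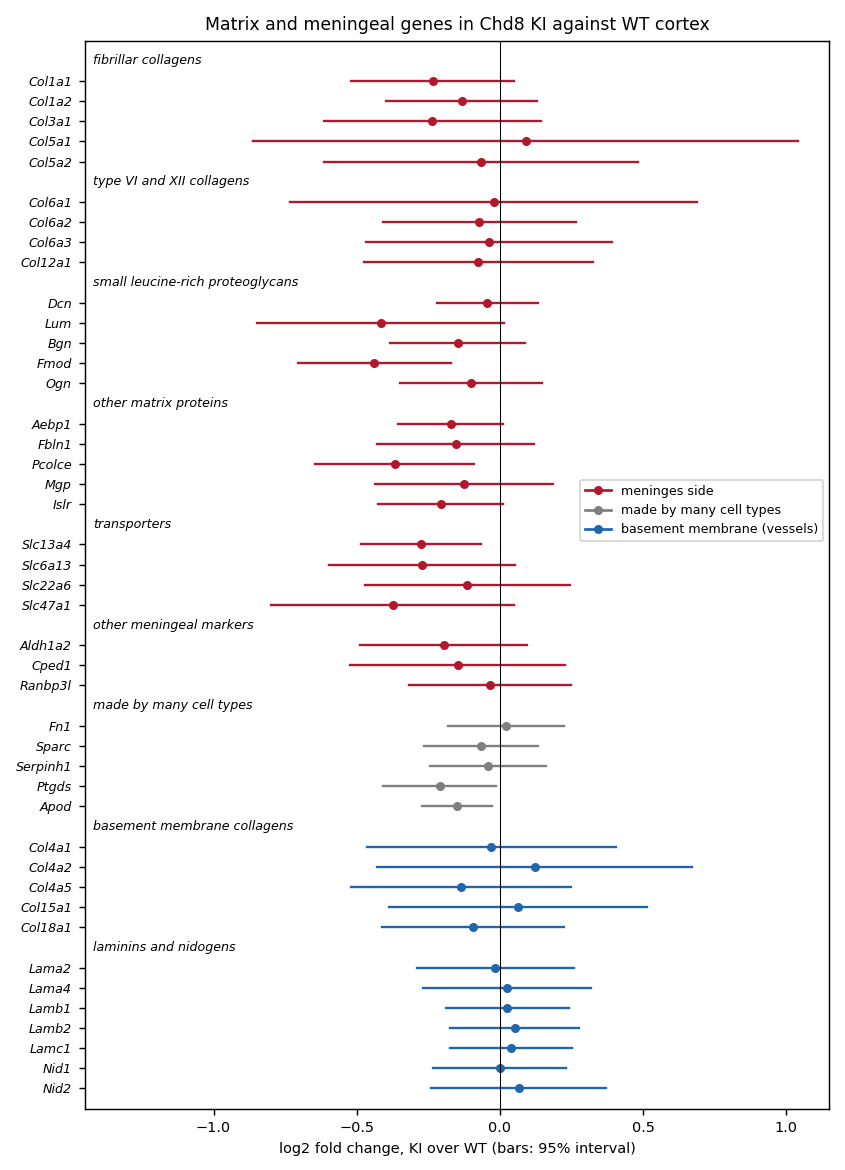
Log2 fold change, KI over WT, of the 43 genes grouped by role, with 95% intervals from the authors' deposited standard errors; colours mark the meninges side, the vessels side and genes made by many cell types. On the meninges side 25 of 26 points lie left of 0 and 3 intervals exclude it, while all 12 intervals of the vessels side include 0.

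Among the small leucine-rich proteoglycans, which bind collagen fibrils and set their diameter and spacing, all 5 were negative (median -0.15). The authors' deposited table placed Fmod, encoding fibromodulin, at 0.738 of WT (95% interval 0.613 to 0.888), a log2 value of -0.44 with a standard error of 0.14 (unadjusted p = 0.0013, adjusted p = 0.556 by the DESeq2 Wald test). It ranked 31st by p among the 13660 genes, and the adjusted p of the other 42 genes was 0.99986. Lum, encoding lumican, which shares with fibromodulin a binding region on type I collagen, stood at 0.749 of WT in the authors' deposited table, with an interval of 0.556 to 1.01 that just reached no change. Its mean normalised count of 58.9 was the lowest of the 43, and its standard error was 0.22. Biglycan (Bgn, 0.903 of WT, interval 0.767 to 1.06) and osteoglycin (Ogn, 0.932, interval 0.785 to 1.11) were closer to WT in the authors' deposited table. Dcn, encoding decorin, the most abundant of the 5 by mean normalised count (518.8), had the narrowest interval, 0.859 to 1.10 of WT around a value of 0.970. That interval does not reach the point value of fibromodulin, but it overlaps the fibromodulin interval of 0.613 to 0.888. The difference between the 2 genes was not tested.

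The 4 transporters had the lowest median of any role, -0.27. Slc13a4, a sodium-coupled sulphate transporter, stood at 0.826 of the WT level in KI cortex (interval 0.715 to 0.954, unadjusted p = 0.0095, authors' deposited table). Slc6a13, the GABA and taurine transporter GAT2, stood at 0.828 (interval 0.661 to 1.04) and Slc47a1, the proton-coupled extruder MATE1, at 0.771 (interval 0.575 to 1.04) there. Slc22a6, the organic anion transporter OAT1, lay nearest to WT in the authors' deposited table, at 0.924 (interval 0.721 to 1.19). All 4 pointed the same way, and 3 of the 4 intervals included no change.

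Fibrillar collagens give the pia its tensile strength. The chains of type I collagen, Col1a1 and Col1a2, stood at 0.850 and 0.912 of WT in KI cortex (intervals 0.697 to 1.04 and 0.759 to 1.09), and Col3a1, type III collagen, at 0.849 (0.653 to 1.10), in the authors' deposited table. The type V chains, which start fibril assembly, were measured less precisely. Col5a1 was the 1 meninges-side gene above WT, at 1.06, but its interval ran from 0.551 to 2.06, and Col5a2 stood at 0.955 with an interval of 0.653 to 1.40. Collagen VI forms beaded microfilaments, and its 3 chains had point values close to WT in the authors' deposited table, with Col6a1 at 0.985, Col6a2 at 0.952 and Col6a3 at 0.974. The Col6a1 interval, 0.602 to 1.61, allows a change as large as that of fibromodulin in either direction. Col12a1, a collagen that coats fibril surfaces, stood at 0.949 (interval 0.719 to 1.25) there. The type VI and XII group had the median closest to 0 of any role on this side, -0.055.

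The other secreted matrix proteins of the meninges side were all 5 negative, with a median of -0.17. Pcolce, which enhances the enzyme that trims procollagen, stood at 0.775 of WT in KI cortex (interval 0.639 to 0.940, unadjusted p = 0.0095) in the authors' deposited table. Islr, encoding a leucine-rich repeat protein of fibroblasts, stood at 0.866 (interval 0.745 to 1.01) and Aebp1, whose product binds collagen, at 0.888 (0.781 to 1.01) there. Both intervals ended just above no change. Fbln1, encoding fibulin 1, and Mgp, encoding matrix Gla protein, an inhibitor of calcification, were at 0.898 (0.742 to 1.09) and 0.917 (0.739 to 1.14) in the authors' deposited table. Of the remaining meningeal markers, Aldh1a2, which makes the retinoic acid that the meninges supply to the developing cortex, stood at 0.872 of WT (0.712 to 1.07), Cped1 at 0.903 (0.696 to 1.17) and Ranbp3l at 0.976 (0.803 to 1.19) there.

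On the vessels side no gene had an interval that left out 0. The 5 laminin chains lay between log2 fold changes of -0.016 and 0.051 in the authors' deposited table, and 4 of the 5 were positive. Laminin trimers need 1 alpha, 1 beta and 1 gamma chain. Lama4, the alpha chain typical of endothelium, stood at 1.02 of WT in KI cortex (interval 0.829 to 1.25), and Lama2, the alpha chain of astrocytes, mural cells and fibroblasts, at 0.989 (0.818 to 1.20), in the authors' deposited table. The beta and gamma chains Lamb1, Lamb2 and Lamc1 stood at 1.02, 1.04 and 1.03 there, with intervals between 0.877 and 1.21. The nidogens, which link laminin to collagen IV, were at a log2 value of -0.0014 for Nid1 (ratio interval 0.850 to 1.17) and 1.05 of WT for Nid2 (0.846 to 1.29) in the authors' deposited table. All 7 laminin and nidogen intervals lay within ±0.5 on the log2 scale. They were nevertheless wide enough to include the meninges median of -0.15, as were all 12 on the vessels side.

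Collagen IV, the network of the vessel basement membrane, was less certain. Col4a1 stood at 0.979 of WT in KI cortex (interval 0.724 to 1.32) and Col4a2 at 1.09 (0.742 to 1.59) in the authors' deposited table, so the pair that starts from the shared stretch printed above had values on either side of WT and overlapping intervals. Col4a5, a chain of the minor collagen IV network, stood at 0.910 (0.697 to 1.19) there. The multiplexins Col15a1 and Col18a1, which sit at the outer face of basement membranes, stood at 1.04 (0.765 to 1.43) and 0.937 (0.752 to 1.17) in the authors' deposited table. The 5 basement membrane collagens were thus 3 below and 2 above WT, with a median of -0.031.

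The genes made by many cell types lay between the sides, with 4 of 5 negative and a median of -0.067. The mean weighted by precision was -0.11, and the median without Ptgds and Apod, an alternative chosen after seeing the data, was -0.043. Ptgds, encoding prostaglandin D synthase, a major secreted protein of meninges, choroid plexus and oligodendrocytes, stood at 0.864 of WT in KI cortex (interval 0.754 to 0.989, unadjusted p = 0.0346) in the authors' deposited table. Apod, encoding apolipoprotein D, which oligodendrocytes and pial and perivascular cells make, stood at 0.901 (interval 0.827 to 0.982, unadjusted p = 0.0173) there. All 10 oligodendrocyte markers of a list added after the data were seen were also negative, with a median of -0.081, and their part in the values of Ptgds and Apod was not tested. The fibroblast and vessel products Sparc (0.954 of WT, interval 0.832 to 1.10), Serpinh1, the collagen chaperone HSP47 (0.971, 0.844 to 1.12), and Fn1, fibronectin (1.01, 0.881 to 1.17), had point values close to WT in the authors' deposited table. Per kilobase of merged exons, Ptgds had the highest mean normalised count of the 43 genes (6529), followed by Sparc (653) and Apod (437), and Col6a3 the lowest (6.86).

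Matrix genes outside the 43 were read from lists of the same kind. All 6 measured small proteoglycans besides those above were negative in the authors' deposited table (median -0.13), led by Omd, osteomodulin, whose log2 value was -0.53 (standard error 0.23, unadjusted p = 0.0224), and Prelp, which binds the basement membrane proteoglycan perlecan, whose log2 value was -0.15 (0.078, unadjusted p = 0.0517). The mean normalised count of Omd, 32.4, was near the lowest of all genes tested, 24.4. Other basement membrane genes leaned the other way, with 15 of 18 positive (median 0.062) and Fbln2, fibulin 2, at 0.32 (0.16, unadjusted p = 0.0492) in the authors' deposited table. The median length of the longest transcript of these 18 genes was 5517.5 bases. Of all genes with at least 4876 bases, 1177 of 3505 were negative, so long genes were mostly positive. The part of length in this lean was not tested. The 17 other collagens measured were split, 9 negative and 8 positive (median -0.0087). The 23 measured enzymes and chaperones of collagen synthesis and cross-linking had a median of -0.044, with 13 negative, and P4ha3, a collagen prolyl hydroxylase subunit, stood at -0.24 (0.16) in the authors' deposited table. No gene of these 4 lists passed an adjusted p of 0.05 by the DESeq2 Wald test, and Omd and Fbln2 were the 2 with an unadjusted p under 0.05. Of all 13660 genes, 257 were lower and 183 higher at that unadjusted level, a share that these 4 lists did not exceed.

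Turnover enzymes, receptors and signalling genes of the matrix had medians near 0. These were 0.0020 for 17 turnover genes, -0.013 for 19 matrix receptors and -0.012 for 16 genes of the TGF-beta pathway, the main inducer of fibrillar collagen. Among single genes, the authors' deposited table gave lower values in KI for these: Mmp2, a gelatinase of fibroblasts, at -0.40 (standard error 0.17), Adamts5, which cleaves proteoglycans, at -0.48 (0.21) and Tgfbi, a collagen-binding TGF-beta target, at -0.39 (0.20). The integrins Itgb5 and Itga8 stood at -0.14 (0.069) and 0.25 (0.12) there. None of the genes in these 3 lists passed an adjusted p of 0.05 by the DESeq2 Wald test. Mmp2, Adamts5, Itgb5 and Itga8 had an unadjusted p under 0.05 by that test, against 257 lower and 183 higher of all 13660 genes.

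Of 25 further meningeal markers measured, 19 were negative in the authors' deposited table (median -0.062). Igf2, a growth factor of the meninges, fell to 0.815 of WT in KI cortex (interval 0.752 to 0.883, adjusted p = 0.0022 by the DESeq2 Wald test) and was the 1 gene of all matrix and meningeal lists to pass the threshold, while Igfbp2 stood at 0.881 (standard error of the log2 value 0.073, adjusted p = 0.99986) there. Gjb2, the connexin of meningeal gap junctions, stood at 0.792 of WT (interval 0.673 to 0.932, unadjusted p = 0.0051) in the authors' deposited table. Pdgfra, a receptor of fibroblasts that oligodendrocyte precursors express more broadly, was positive there, with a log2 value of 0.14 (standard error 0.052).

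Markers of neighbouring tissues leaned lower beside the meninges side. Choroid plexus markers had 14 of 16 negative and a median of -0.21, and thalamic markers 8 of 9 negative and a median of -0.48, with 4 of the thalamic genes lower at an adjusted p of 0.05 by the DESeq2 Wald test, among them Tnnt1 at -1.34 (standard error 0.26), Tcf7l2 at -0.92 (0.19) and Ramp3 at -0.40 (0.090) in the authors' deposited table. No choroid plexus gene passed, though 7 lower and 1 higher had an unadjusted p under 0.05 by that test. Of all 13660 genes, 257 were lower and 183 higher at that level. The leading choroid plexus genes pointed both ways, with Kl, klotho, at -0.40 (0.11), Enpp2 at -0.18 (0.059) and Tmem72 at 0.67 (0.21) in the authors' deposited table. The 16 measured choroid plexus genes had mean normalised counts from 47.9 to 13144. The part of the choroid plexus and thalamic markers' tissues in the values of the meninges side and of Igf2 was not tested. Markers of the cells of vessels lay nearer to WT as lists. Endothelial markers had 12 of 18 positive (median 0.032), led by Esam, an adhesion molecule of endothelial junctions, at 0.22 (0.10) in the authors' deposited table, and mural cell markers had 9 of 13 negative (median -0.050), led by Vtn at -0.11 (0.069). Astrocyte markers were 5 negative and 5 positive, cortical neuron markers had a median of 0.033, and the 3 measured markers each of border macrophages and of blood cells had medians of 0.084 and 0.11; the haemoglobin genes Hba-a1 and Hba-a2 are near-identical, so reads may be split between them.

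**Figure D2:**
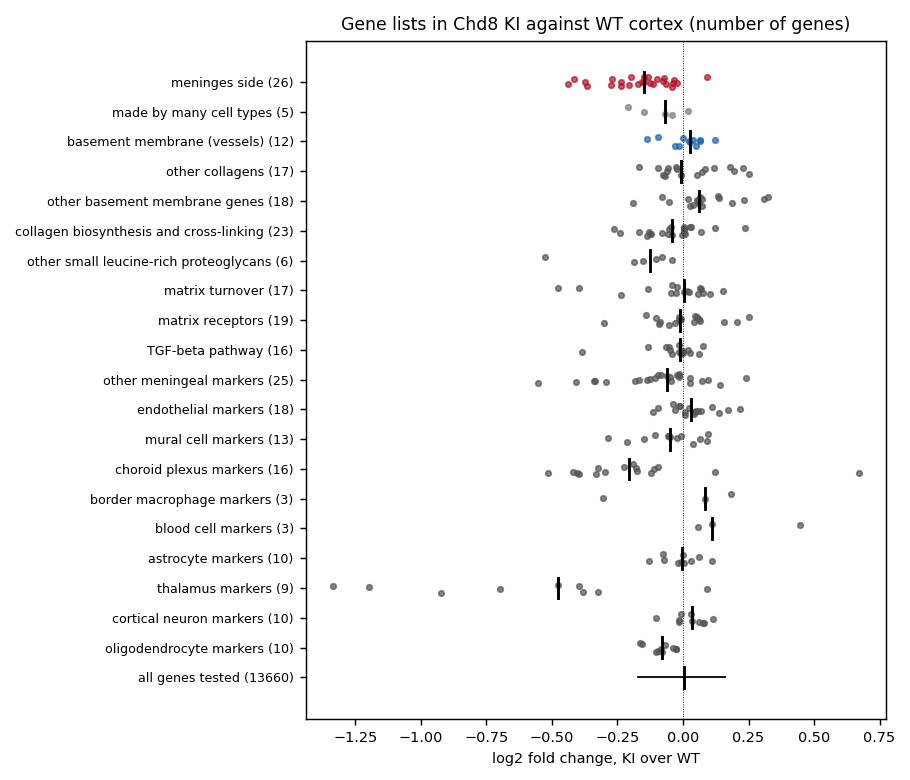
Log2 fold change, KI over WT, of each measured gene (points) and its list median (black bars) for the 3 groups of the 43 genes and for 17 other lists; the bottom line spans the 5th to 95th percentile of all genes tested, with its median. The meninges side (median -0.15), other small proteoglycans (-0.13), choroid plexus (-0.21) and thalamus (-0.48) lie left of 0. So do oligodendrocyte markers (-0.081), other meningeal markers (-0.062) and mural cell markers (-0.050). The vessels side (0.025), other basement membrane genes (0.062) and endothelial markers (0.032) lie at or right of 0.

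The standard errors of the 43 genes were themselves large. Set against the median of genes in the same decile of mean normalised count, 36 of 43 had a larger standard error in the authors' deposited table and 10 of 43 had one over 1.5 times that median, which 7.12% of all genes did. The largest ratio was that of Col5a1, 5.55 times the median, followed by Col6a1 at 4.62, Col4a2 at 3.99 and Col4a1 at 2.83. Col5a1 stood 19th of all genes by this ratio and Col6a1 33rd. A large standard error at a given count means that libraries of the same genotype differed, in 1 library or in several, which cannot be resolved without values per library. Among the 14 collagens 7 exceeded 1.5 times, while none of the 5 small proteoglycans, 5 other secreted matrix proteins or 4 transporters did, and those roles hold Fmod, Lum, Slc47a1 and Pcolce, the 4 lowest values of the 43. The genes above Col5a1 by this ratio, named after their values were seen, included the nuclear non-coding RNAs Malat1 (12.8), Meg3 (8.95) and Miat (7.22), the activity-induced genes Arc (9.92) and Fos (6.98), and Srrm2 (6.39), each as a ratio from the authors' deposited standard errors. The 18 genes above Col5a1 also include the mitochondrial genes ATP6, COX2 and COX3, and their log2 fold changes in the authors' deposited table ran from -0.10 to 0.40, 13 of them positive. Without the 5 meninges-side genes over 1.5 times, which include Col5a1, the 1 positive gene of that side, the remaining 21 were all negative (median -0.17). Without 3 on the vessels side, 4 of 9 were negative (median 0.024).

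**Figure D3:**
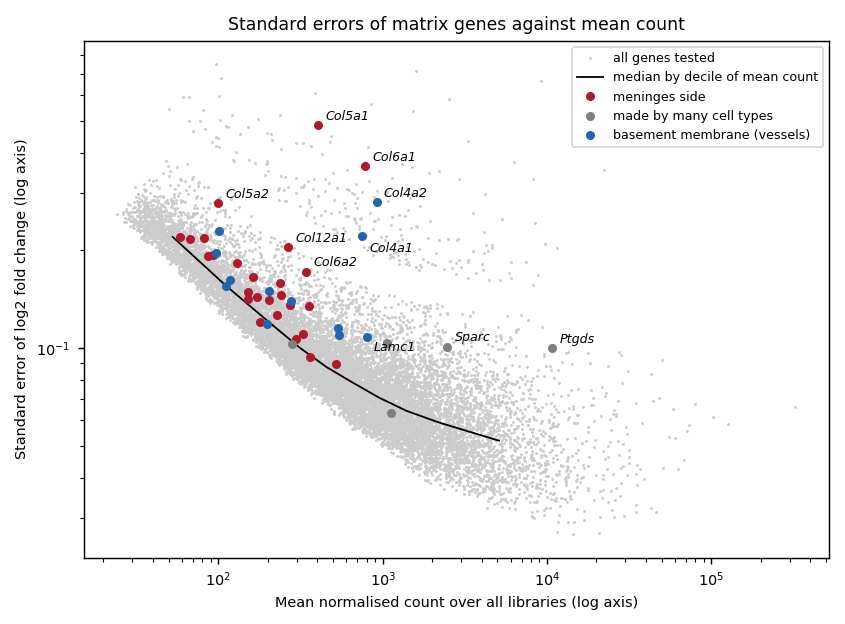
Standard error of the log2 fold change against mean normalised count (both axes logarithmic) for all genes tested (grey) and the 43 genes (colours by side); the black line joins medians by decile of mean count, and names mark genes over 1.5 times that median. Col5a1, Col6a1, Col4a2 and Col4a1 stand far above the line, at 5.55, 4.62, 3.99 and 2.83 times the median.

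Transcript length moved with the split between the sides. Over 13098 genes, which are not independent, the log2 fold change had a Spearman correlation of 0.236 with the length of the longest transcript, and over the 43 genes it was 0.582. The value over the 43 pools the sides. It was 0.493 within the 26 meninges-side genes and -0.399 within the 12 vessels-side genes. The median length was 3745 bases on the meninges side and 6068.5 bases on the vessels side, where the shortest transcript had 4876 bases. Of the 9 meninges-side genes at least that long, 8 were negative, with a median of -0.076. Over all genes of such length, 1177 of 3505 were negative and the median was 0.027, beside 5 of 12 negative on the vessels side. The 17 shorter meninges-side genes were all negative, with a median of -0.17. Over all shorter genes, 5200 of 9593 were negative and the median was -0.0081. With the length trend of all genes removed, the meninges median was -0.15 and 25 of 26 were negative, and the vessels median was 0.0067. The sides thus differed in length, and the longer meninges genes lay closer to 0 than the shorter ones.

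**Figure D4:**
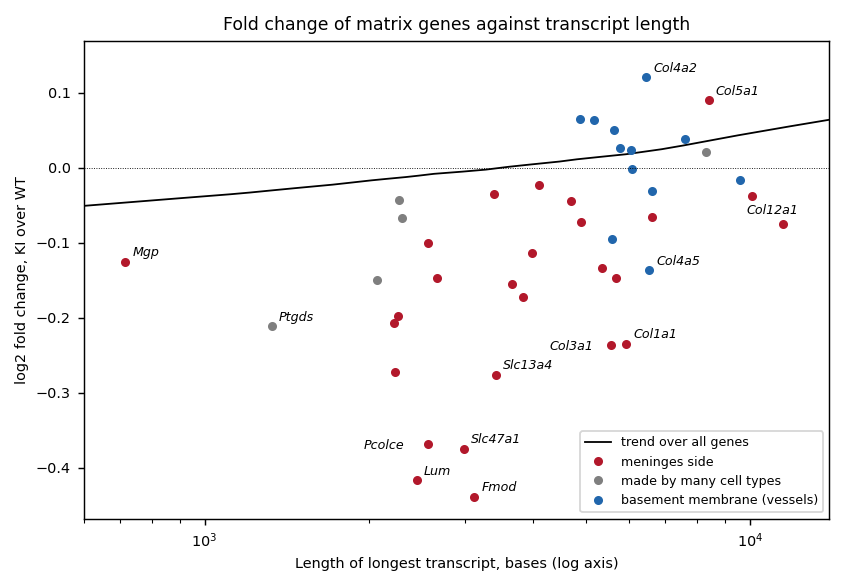
Log2 fold change, KI over WT, of the 43 genes against the length of the longest transcript in bases (logarithmic axis), with colours by side and the smoothed trend over all genes in black. The lowest points, Fmod, Lum, Slc47a1 and Pcolce, have transcripts of 2448 to 3120 bases, and vessels-side genes start at 4876 bases.

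The 43 genes lay on 17 chromosomes, with 4 pairs of adjacent protein-coding genes in the RefSeq annotation of GRCm38, the assembly of the authors' build mm10. On chromosome 10, Dcn (97479500 to 97518163) and Lum (97565501 to 97572703) are 47337 bases apart and stood at -0.044 and -0.42 in the authors' deposited table. On chromosome 1, Col3a1 (45311538 to 45349706) and Col5a2 (45374331 to 45503282) converge with 24624 bases between them and stood at -0.24 and -0.066 there. Col6a2 (76595756 to 76623630) and Col6a1 (76708792 to 76726044), on chromosome 10, stood at -0.072 and -0.022 in the authors' deposited table. On chromosome 8, Col4a1 (11198423 to 11312889) and Col4a2 (11312805 to 11449287) overlap by 85 bases at their outermost 5′ ends and stood at -0.031 and 0.12. In each pair the intervals overlapped. Fmod lies on chromosome 1 from 134037254 to 134048280, Pcolce on chromosome 5 from 137605105 to 137611522 and Slc13a4 on chromosome 6 from 35267953 to 35308126, and all 43 genes are protein-coding, with values for whole genes. In the GENCODE M21 annotation 31 of the 43 share no exon base with another gene. Pcolce shares 112 bases with Fbxo24, Islr 181 bases with Islr2 and Col3a1 141 bases with Gm47302, each on the same strand. Strand cannot tell apart reads in those stretches. With a gene on the opposite strand, 10 of the 43 share exon bases, the longest stretches being 1137 bases for Cped1, 631 for Lama2 and 437 for Nid2. Whether strand was used in counting is not given, so whether reads in these opposite-strand stretches were kept apart is unknown.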

How the data were processed

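Poly(A) RNA of 10 cortices (5 KI, 5 WT; groups from the sample titles) was sequenced. Per the submitters' processing notes, the tools were Trimmomatic 0.39, HISAT2 2.1.0, featureCounts 2.0.0 and DESeq2 1.26.0, with build mm10; settings, annotation, use of strand and filters: not given in the sources used here. Per the file headers, the authors' deposited table gives for each NCBI gene number the mean normalised count over all libraries (a signal value), the log2 fold change and its standard error, the Wald score, the p-value and the adjusted p-value. The deposited Wald score equalled the log2 fold change over its standard error, and the adjusted p-value a Benjamini-Hochberg adjustment over 13660 genes, both within 1e-06. The lowest mean normalised count was 24.4. A count model was foreseen for counts per library; with only this table, the authors' own test is used.

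From it, 95% normal intervals and, as 2 to the power of the log2 value, ratios to WT were computed with pandas 2.3.3 and scipy 1.17.1 in Python 3.11.15. RefSeq (GRCm38.p6) named 13497 genes, and lengths came from GENCODE M21. The recomputed adjustment was tested on simulated data. Lists are described by counts and medians, without a test. The 43 genes, their sides and the lists were chosen with earlier results of these data known; named genes are the 43, Chd8, Igf2, Igfbp2 and up to 3 genes of smallest p per list, besides those said to be named after their values were seen. P-values cover only the spread between these libraries.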

Additional observations from a re-analysis of the deposited data

How the results depend on the processing

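No paired analysis was possible because the table holds no value per library, and for the same reason no library could be left out in turn. Under 8 alternatives for the meninges side (a mean normalised count of at least 200, precision weighting, removal of the length or GC trend, centring, other assignments of genes to sides, and genes of high standard error left out) the median log2 fold change stayed between -0.18 and -0.13. The vessels median stayed between 0.0067 and 0.026 under 7, and the median of genes made by many cell types between -0.11 and -0.043 under 6. No gene of the 43 passed at an adjusted p of 0.1 or 0.01, with a minimum mean count of 50 or 200, or with a log2 change of at least 0.5. The alternatives that left out genes of high standard error, left out Ptgds and Apod, or removed the GC trend were chosen after seeing the data. All but 3 of the 26 meninges intervals included 0, so the standard errors limit what can be said of single genes.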
